A study of Rattus norvegicus with 12 samples.

Results

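Pou3f3, also called Brn1, encodes a transcription factor of the POU class III group. It is 1 of 26456 gene names on the array and was followed through every probe that carries its name, 2 of 30367 probes on 4 of 58717 gene spots. It was selected on its difference between low protein and normal protein rats in these same arrays, at both days. Its values between the diets are therefore given as a description without a test.

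POU proteins bind DNA through a POU-specific domain and a homeodomain joined by a flexible linker, and the class III members commonly act beside SOX factors on octamer-like sites. Pou3f3 is best known from the developing cortex and from the loop of Henle and distal tubule of the kidney. The mammary gland at this age is mostly fat pad, into which a branching tree of luminal and basal epithelium grows.

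The arrays measured total RNA of the lumbar mammary gland of female Wistar rats, with 3 arrays in each of 4 groups. The NP groups were born to dams on an isocaloric diet with 17.0% protein during pregnancy, and the LP groups to dams on 8.8% protein. Standard chow was fed in both diets from birth on, to the nursing dams and, after weaning at day 21, to the offspring, and the rats were studied at day 21 or day 28 of life, the beginning and the end of ductal outgrowth. Lymph nodes that could be seen had been removed from the tissue. The labels name no transgene or other agent. The fat cell gene Fabp4 and the epithelial gene Krt18 were detected on all 12 arrays. Replicates keep the name of the sample label (4a, 5a and 6a for NP d21, 4a, 6a and 7c for LP d21, 4f, 5f and 6f for NP d28, and 4f, 6f and 7f for LP d28). Each dam was on 1 diet, so that equal numbers in NP and LP are not of 1 litter. Within a diet the labels do not say whether equal numbers mark a shared litter, so that the tests measure only the spread between these rats. All arrays of d21 were on slide 1 and all arrays of d28 on slide 2. Day and slide cannot be told apart.

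Both probes have 60 bases and are designed on the same transcript. They are shown because they read different stretches of it and vary over different ranges. Probe A_44_P311106 starts at position 2714 of its target and lies at chr9:41876089-41876148 of rn4. All 3 reading frames of its 60 bases contain a stop codon, and it holds the polyadenylation hexamer AATAAA, given in capitals within the first 30 bases. Probe A_64_P021286 starts 1322 bases upstream, at position 1392, and lies at chr9:41874687-41874746 of rn4. Its capitals mark the codons of the conserved recognition helix of the homeodomain. The strand and exon structure of the gene on rn4 were not used here.
A_44_P311106: ggtaggttttAATAAAcagacttttcaaat
A_64_P021286: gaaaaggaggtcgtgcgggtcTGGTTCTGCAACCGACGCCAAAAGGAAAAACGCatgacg

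Each probe was printed on 2 spots of every array. Signals are given as the processed signal of the scanner software, which is corrected for background, in arbitrary units. On NP d21, the A_44_P311106 spots read 4.21 and 5.69 on array 4a, 8.36 and 16.4 on 5a, and 10.2 and 14.5 on 6a. None of them was called well above background by the software, and the 95th percentile of the negative control spots on the 12 arrays was between 4.12 and 6.53. On LP d21, the same spots read 129.7 and 160.9 on array 4a, 54.2 and 61.2 on 6a, and 8.78 and 8.12 on 7c. Arrays 4a and 6a were well above background on both spots, and array 7c was at the level of the NP arrays.

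On NP d28, the A_44_P311106 spots read 3.92 and 4.02 on array 4f, 10.1 and 6.92 on 5f, and 79.1 and 74.9 on 6f. Array 6f was the NP array on which this probe was well above background. On LP d28, the spots read 357.4 and 346.6 on array 4f, 42.9 and 32.8 on 6f, and 166.3 and 175.0 on 7f. All LP d28 arrays were well above background on both spots, and array 4f held the highest signal of the gene in the study.

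The spots of A_64_P021286 were read in the same way. They gave 4.39 and 9.91, 9.89 and 13.5, and 15.9 and 15.4 on NP d21 arrays 4a, 5a and 6a, none of them well above background. On LP d21 they read 49.6 and 40.3 on array 4a, 23.6 and 28.0 on 6a, and 16.9 and 16.5 on 7c. Arrays 4a and 6a were again detected and 7c was not. On NP d28 they read 19.7 and 12.4 on array 4f, 15.2 and 8.39 on 5f, and 18.9 and 21.4 on 6f. On LP d28 they read 60.6 and 59.6 on array 4f, 20.4 and 12.9 on 6f, and 33.2 and 31.0 on 7f. On NP array 4f and LP array 6f, only the brighter spot was well above background.

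**Figure D1:**
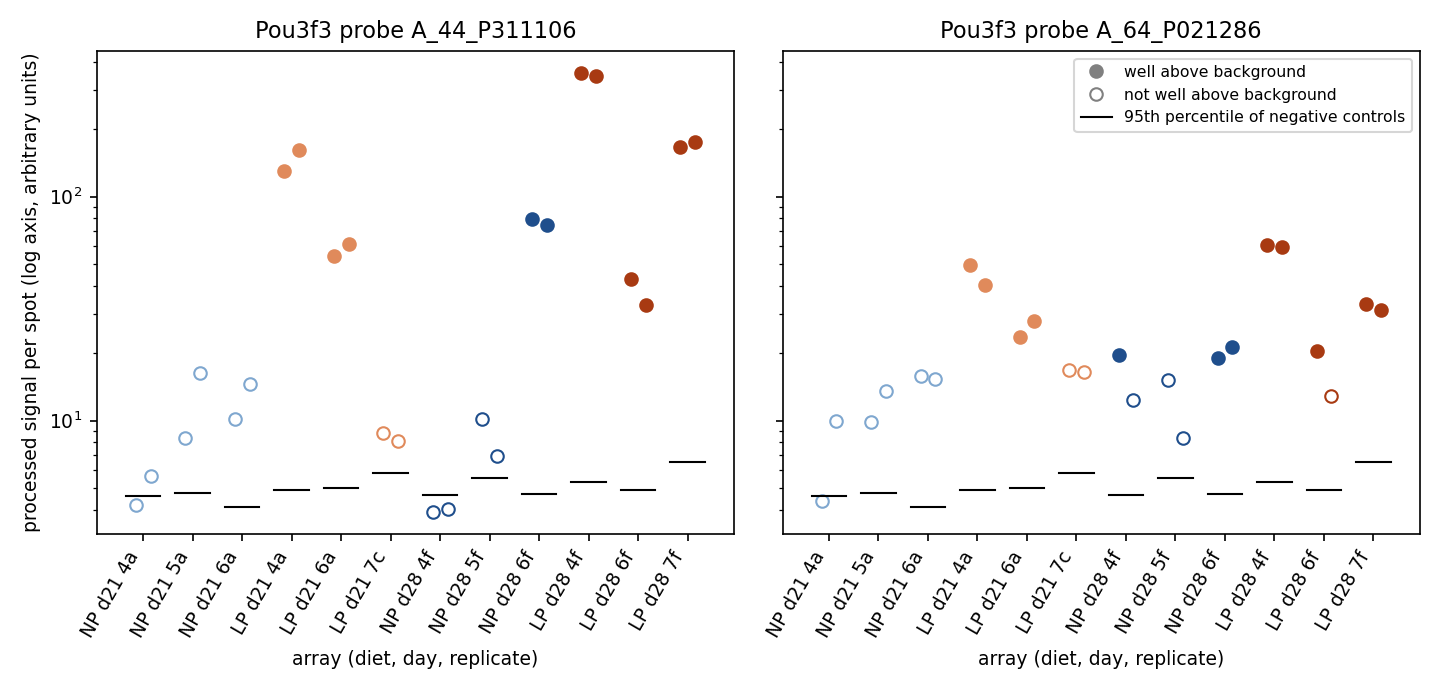
Processed signal of each spot of the 2 Pou3f3 probes (log axis, arbitrary units) on the 12 arrays, coloured by group, with filled points well above background and the 95th percentile of the negative controls of each array as a line. On A_44_P311106 the filled spots lie between 32.8 and 357.4 and the open ones between 3.92 and 16.4.

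The 2 spots of a probe lay close together where the probe was detected. The brighter A_44_P311106 spot exceeded the dimmer by a factor of at most 1.31 on the 6 arrays where it was well above background. On the 6 other arrays the factor reached 1.96. For A_64_P021286, detected on 7 arrays, the factor was at most 1.59 where it was detected and 2.26 where it was not. Neither probe had a spot marked as an outlier. On 3 A_44_P311106 spots the software had put a surrogate value in place of the signal. These were the dimmer spot of NP d21 array 4a and both spots of NP d28 array 4f. The local background beside the 4 spots of LP d28 array 7f was between 42 and 56, against 16 to 27 on the other 11 arrays.

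Arrays were compared on a log2 scale after dividing each signal by the 75th percentile of the gene spots on its array. On this scale A_44_P311106 ranged over 6.50 log2 units on the 12 arrays, from -9.03 on NP d28 array 4f to -2.53 on LP d28 array 4f. A_64_P021286 ranged over 3.21 units, from -8.29 on NP d21 array 4a to -5.08 on LP d28 array 4f. The lowest signal that the software called well above background lay between -7.24 and -6.28 among the arrays, so that most NP values of either probe sit at or below the limit of detection.

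Group means of A_44_P311106 were -7.97 ± 0.65 in NP d21, -7.05 ± 2.20 in NP d28, -5.61 ± 1.90 in LP d21 and -3.97 ± 1.66 in LP d28 (SD, n = 3). Those of A_64_P021286 followed the same order, with -7.72 ± 0.53, -6.90 ± 0.24, -6.24 ± 0.52 and -6.03 ± 0.96 (SD, n = 3). The ranges of neighbouring groups in this order overlapped for A_44_P311106. For A_64_P021286 they overlapped for each neighbouring pair except NP d21 and NP d28, whose closest arrays had -7.24 and -7.06. Of all probes tested, 11.7% had every NP d28 array above every NP d21 array.

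**Figure D2:**
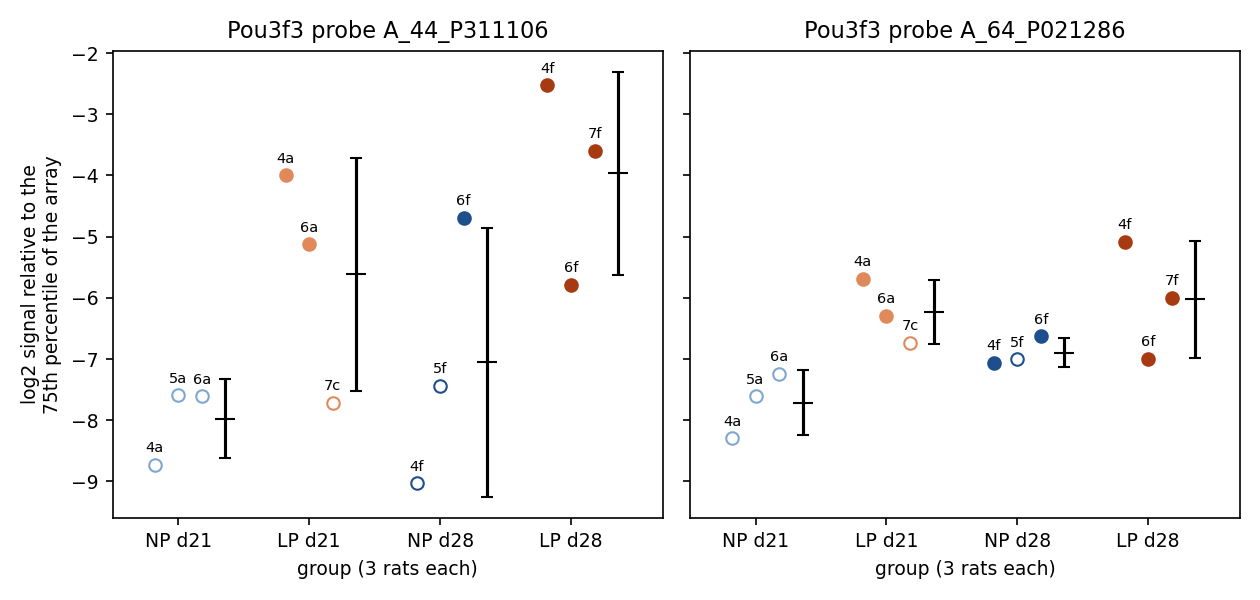
Log2 signal of the 2 Pou3f3 probes relative to the 75th percentile of the array, by group, with 1 point per rat (filled where at least 1 spot was well above background) and the mean ± SD (n = 3) beside the points. LP arrays 4a and 4f are the highest of their day on both probes, and LP arrays 7c and 6f lie within or near the NP range.

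At d21, no NP array was well above background, so that only a lower bound of the fold can be given, with each NP array set to its lowest detected signal. By this bound A_44_P311106 was at least 2.67-fold higher in LP and A_64_P021286 at least 1.73-fold, if LP array 7c, where neither was detected, is taken at its own signal. The recorded log2 means lay 2.36 and 1.48 apart, but those of NP come from undetected spots and give no fold. With normexp background correction the means lay 0.89 and 0.44 apart, and the bounds were 1.78-fold and 1.32-fold. On A_44_P311106 the groups overlapped, since LP array 7c (-7.71) was below NP arrays 5a (-7.59) and 6a (-7.60). On A_64_P021286 every LP array (-6.73 and above) lay above every NP array (-7.24 and below), which held for 5.54% of the 23177 tested probes. Without LP array 4a the bound of A_44_P311106 fell to 1.53-fold, and without LP array 7c it was 5.53-fold.

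At d28, A_44_P311106 was detected on 3 LP arrays and on 1 of 3 NP arrays, and A_64_P021286 on 3 LP and 2 NP arrays. The recorded log2 means lay 3.09 and 0.87 apart, with the undetected NP arrays at their own signal, so that they give no fold. With normexp background correction they lay 1.22 and 0.34 apart. With each undetected array raised to its own limit of detection, the lowest detected signal on that array, a choice made after the data were seen, the differences were 1.97 (3.93-fold) and 0.66 (1.58-fold). The groups overlapped on both probes, because NP array 6f (-4.69 on A_44_P311106) was above LP array 6f (-5.78). NP array 6f was then left out because A_44_P311106 was detected on it, a step added after the data were seen. Against the NP arrays left, LP was at least 6.05-fold higher on this probe. This bound follows from leaving out the high NP array, so that nothing is read from it. Without NP array 4f the difference was 2.10. Without LP array 4f the A_64_P021286 difference was 0.40, and without LP array 6f it was 1.36. Without LP array 7f, which had the high local background, the differences were 2.90 and 0.86. Every LP array lay above every NP array at d28 on 4.41% of tested probes, and neither Pou3f3 probe was among them.

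These contrasts chose the gene, and nothing is read from their share among all probes. A 2-fold difference with an unadjusted p under 0.05, the criteria of the study, was met in either direction by 0.997% of the 23177 tested probes at d21 and by 0.66% at d28. In limma with Benjamini-Hochberg adjustment, 0% of probes had an adjusted p under 0.05 between the diets at d21 and 0% at d28. An unadjusted p under 0.05 was found for 1010 probes at d21 and for 1870 at d28.

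The days were compared over both diets as a description too, since the gene was taken up for its pattern over diet and day. A_44_P311106, which had 5 of its 6 detected arrays in LP, had recorded means 1.28 log2 units (SE 0.88) higher at d28, and A_64_P021286 0.51 (SE 0.32). At d21 both probes were detected on 2 of 6 arrays, so that these values include undetected signal and give no fold. The arrays of the days overlapped on both probes. With normexp the differences were 0.70 and 0.31. That of A_44_P311106 was 0.69 without NP d28 array 6f and 0.76 without LP d21 array 7c, and that of A_64_P021286 was 0.28 without LP d28 array 4f. Over all probes, limma called 421 of 23177 (1.82%) at an adjusted p under 0.05 between the days, 223 with the replicate number as a block and 103 without NP d21 array 6a.

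Within each diet the change is a description. From d21 to d28, the LP mean was higher by 1.64 log2 units on A_44_P311106 and by 0.21 on A_64_P021286, with 2 detected arrays at d21 and 3 at d28. Single arrays carried these values. Without LP d21 array 7c, on which neither probe was detected, they were 0.59 and -0.04, and over the LP arrays left out in turn, which was added after the data were seen, they ran from 0.59 to 2.55 and from -0.26 (without LP d28 array 4f) to 0.70. In NP no fold can be given for A_44_P311106, which was detected on 0 arrays at d21 and on 1 at d28. A_64_P021286 was at least 1.09-fold higher at d28 if NP d28 array 5f, where it was not detected, is taken at its own signal. The LP arrays with the number 4 were the highest of both days on both probes. The LP arrays with the number 6 had -5.12 at d21 and -5.78 at d28 on A_44_P311106, and those with the number 7 had -7.71 and -3.59. Among NP arrays, the number 4 had -8.72 and -9.03, the number 5 -7.59 and -7.44, and the number 6 -7.60 and -4.69. Array 6f was the single NP array on which this probe was detected.

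The 2 probes were set against each other over the 12 arrays. Pearson's r was 0.874 and Spearman's rho 0.853, within the 6 arrays of d21 r was 0.915 and rho 0.771, and within the 6 arrays of d28 r was 0.857 and rho 1. These values are a description, since a diet difference on both probes, by which the gene was chosen, raises them. Without LP d28 arrays 4f and 7f, the farthest from the median of A_44_P311106, r over 10 arrays was 0.783. With the mean of each group taken out, the deviations of the probes still correlated (r = 0.792, exact permutation test within the groups, two-sided, p = 0.00154, n = 12), a test added after the data were seen. The probes share the RNA, the labelling and the scan of each array with all other probes. Their agreement is thus not one between rats, and does not by itself show that both read the gene. Over all tested probes, each counted with itself, A_44_P311106 ranked 4 by r with A_64_P021286. A_64_P021286 ranked 9 by r with A_44_P311106.

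**Figure D3:**
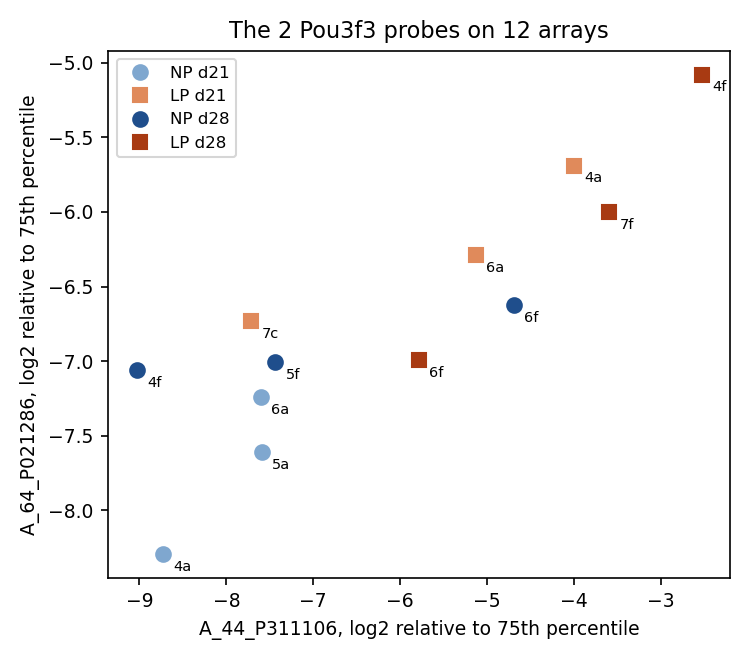
Log2 value of A_64_P021286 against that of A_44_P311106, each on the scale of the 75th percentile, with 1 point per array and the replicate name beside it (circles NP, squares LP). The points run from NP d21 array 4a at the lower left to LP d28 array 4f at the upper right (r = 0.874, n = 12).

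Over the arrays on which it was detected, Pou3f3 ranged over 3.25 log2 units on A_44_P311106 and 1.98 on A_64_P021286. The other POU genes detected on all arrays ranged over at most 1.43 (Pou6f1), apart from Pou2af1 with 5.53. Pou3f3 was chosen for its differences, so that nothing is read from this comparison. Of the 15 other genes on the POU list, 14 had a probe, of which 6 were well above background on all 12 arrays and were tested, and 7 on none. With limma, 0 of the 6 had an adjusted p under 0.05 at d21, at d28 or between the days. Of all tested probes, 0% were called at d21, 0% at d28 and 1.82% between the days. Unadjusted p values under 0.05 were found for 0 at d21, for 1 at d28 and for 1 between the days, in both cases Pou5f1. Over all tested probes this held for 4.36% at d21, 8.07% at d28 and 19.3% between the days. The median LP minus NP difference of the 6 was 0.02 at d21 and -0.26 at d28, beside 0.01 and -0.05 over all tested probes.

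Within class III, Pou3f1 (Oct6, which acts in Schwann cells and keratinocytes) was detected on every array, from -3.69 to -3.08. Its LP minus NP difference was 0.12 (SE 0.15) at d21 and 0.01 (SE 0.15) at d28, with limma adjusted p values of 0.925 and 0.976. Pou3f2 (Brn2), the close relative that acts with Pou3f3 in the cortex, was well above background on no array and ranged from -9.34 to -7.75. Pou3f4 (Brn4), of the inner ear and the pancreas, was likewise undetected, from -9.06 to -7.84. Class III genes are similar in the homeobox read by A_64_P021286. Whether that probe also binds RNA of its relatives was not tested. Pou3f1, the detected relative, ranged over 0.62 log2 units.

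Outside class III, Pou1f1 (the pituitary factor Pit1) differed by 0.18 (SE 0.25) at d21 and 0.09 (SE 0.25) at d28. Pou2f1 (the broadly expressed Oct1) differed by -0.05 (SE 0.20) and -0.28 (SE 0.20). Pou6f1 differed by 0.05 (SE 0.28) and -0.47 (SE 0.28). Pou5f1 (Oct4, the pluripotency factor) differed by less than 0.01 in size at d21 and by -0.23 (SE 0.10, limma adjusted p = 0.581) at d28, and was 0.24 (SE 0.07, limma adjusted p = 0.128) higher at d28 than at d21. Pou2af1, the B cell coactivator of octamer factors and no POU protein itself, had -3.83 on LP d21 array 6a and 0.55 to 1.70 on the 11 other arrays.

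**Figure D4:**
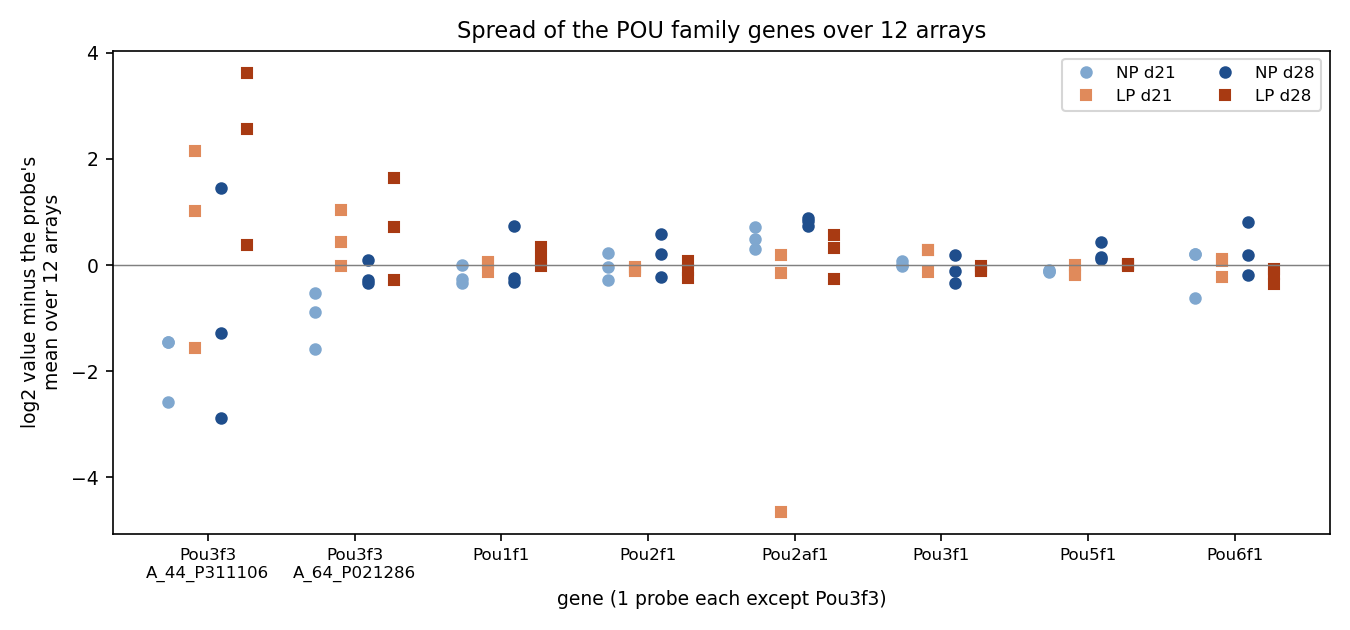
Log2 value minus the mean of the probe over the 12 arrays, for the 2 Pou3f3 probes and the 6 listed POU genes detected on all arrays, with 1 point per array (circles NP, squares LP). Pou3f3 spreads over 6.50 and 3.21 units with undetected arrays included, and over 3.25 and 1.98 where it was detected. The other genes spread over at most 1.43 (Pou6f1), except Pou2af1 with 5.53.

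Genes that mark the tissues in which Pou3f3 is known were examined next, to show what else these samples expressed. Over 10 marker lists, 102 of 106 genes had a probe and 88 were tested. With limma, 0 of the 88 passed an adjusted p under 0.05 at d21 and 0 at d28, beside 0% of all tested probes on either day. An unadjusted p under 0.05 was found for 4 at d21 and 4 at d28, beside 4.36% and 8.07% of all tested probes.

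Of 12 kidney tubule genes, 8 were tested and 3 were detected on all arrays, among them the collecting duct channel Aqp2. Slc12a1 and Cldn16 of the loop of Henle and the regulator Lhx1 were well above background on no array, while Umod of the loop of Henle and the channel Kcnj1 were detected on 9 arrays and Slc12a3 of the distal tubule on 11. Slc12a3 had LP minus NP differences of -0.78 (SE 0.34) at d21 and -0.85 (SE 0.34) at d28, with limma adjusted p values of 0.861 and 0.581. Among the 8 tested kidney tubule genes, 4 had a higher mean in LP at d21 and 2 at d28. Their median differences were -0.02 and -0.21. Irx1 had the highest signal of that list (0.69 to 2.85), with LP minus NP differences of 0.92 (SE 0.42) at d21 and 0.39 (SE 0.42) at d28. It was highest on LP d21 array 6a, as was the epithelial gene Krt18. From which cells the Irx1 signal came was not tested. Of the 88 tested marker genes, 1 was called between the days, Pax8, beside 1.82% of all tested probes, with 0.47 (SE 0.08, limma adjusted p = 0.0231) more at d28. No listed gene was called between the days with normexp background correction, with the replicate block, or without NP d21 array 5a or 6a, LP d21 array 6a or 7c, or LP d28 array 4f or 7f. Of 12 neuronal genes, 9 were tested and 5 were detected on all arrays. Elavl4, Syt1 and Nefl were detected on no array, and the brightest, Gap43, ranged from -2.96 to -0.35. Of 14 genes around SOX and proneural factors, 12 had a probe. Sox4 was the brightest (1.16 to 2.03) and Sox2, a known partner of class III factors, had LP minus NP differences of -0.33 (SE 0.36) at d21 and -0.94 (SE 0.36, limma adjusted p = 0.581) at d28. In that list 8 of the 10 tested genes had a higher mean in LP at d21 and 4 at d28, with median differences of 0.23 and -0.15. Of 12 Schwann cell genes, 10 were detected on all arrays, and their median LP minus NP difference was -0.18 at d21 and -0.25 at d28.

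Several other cell types varied between the rats, and their lists are given beside Pou3f3. In bulk RNA, fewer cells of a type and less RNA per cell cannot be told apart. All 11 luminal epithelium genes were tested, and all 11 had a higher mean in LP on both days. Their median differences were 0.77 at d21 and 0.64 at d28. They had 0 calls at an adjusted p under 0.05 (limma), beside 0% of all tested probes on either day. The 7 tested basal genes had medians of 0.75 and 0.83, also with 0 calls. Without LP d21 array 6a the d21 medians were 0.45 (luminal) and 0.37 (basal), and without NP d28 array 4f the d28 medians were 0.24 and 0.11. Krt18, the brightest luminal gene, was lowest on NP d21 array 6a (2.94) and NP d28 array 4f (2.62), and highest on LP d21 array 6a (4.78).

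The summed signal of the luminal list (log2) was 3.75, 4.69 and 3.77 on NP d21 arrays 4a, 5a and 6a, and 4.91, 5.59 and 4.12 on LP d21 arrays 4a, 6a and 7c. At d28 it was 3.44, 4.59 and 4.54 on NP arrays 4f, 5f and 6f, and 4.82, 4.87 and 4.73 on LP arrays 4f, 6f and 7f. The lowest array of each day, NP 4a and NP 4f, was also the lowest for A_44_P311106. That probe was not detected on either array, so that its rank there is that of undetected signal. NP d21 array 5a, with 4.69, had no detected Pou3f3. On the LP d28 arrays, the luminal sums lay within 0.13 units while A_44_P311106 ranged over 3.25. The part of the epithelial content in the Pou3f3 values was not tested.

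Skeletal muscle genes differed most between single rats. The brightest, Mylpf, a fast myosin light chain, had -4.35 on LP d21 array 4a and -3.30 on LP d28 array 4f, the arrays with the highest Pou3f3 of each day, and -1.67 on LP d28 array 7f. It was highest on LP d21 array 6a (4.93), LP d28 array 6f (4.76) and NP d21 array 6a (4.16). The median LP minus NP difference of the 9 muscle genes was -1.79 at d21 and -0.74 at d28, with 0 and 4 of the 9 higher in LP. The sign rested on single arrays, as the median was 0.60 at d21 without LP array 4a, and at d28 0.87 without LP array 4f and 0.08 without 7f. Their part in the Pou3f3 values was not tested.

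Lymph node genes were lowest on LP d21 array 6a, where the summed list was 1.91 against 3.86 to 5.47 on the 11 other arrays. Still, 7 of the 10 genes were detected on all 12 arrays, this one included. On that array Cd79a of B cells had -6.53 and the brightest gene of the list, the chemokine Ccl21, had 1.78, against 2.78 to 4.62 elsewhere. All 10 genes had a lower mean in LP on both days, with median differences of -2.08 at d21 and -0.63 at d28. They had 0 calls (limma, adjusted p under 0.05), beside 0% of all tested probes. Without that array the lymph node median at d21 was -0.27, and the Pou3f3 difference was 2.12 on A_44_P311106 and 1.51 on A_64_P021286. Skin genes were led by Krt15, which mammary epithelium also expresses (-1.91 to 2.38). Krt1, a marker of differentiated epidermis, was high on NP d21 array 5a (-0.53) and LP d21 array 6a (-0.21) and at most -5.48 on the others. The brightest fat cell gene, Fabp4, stayed between 5.53 and 6.01.

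**Figure D5:**
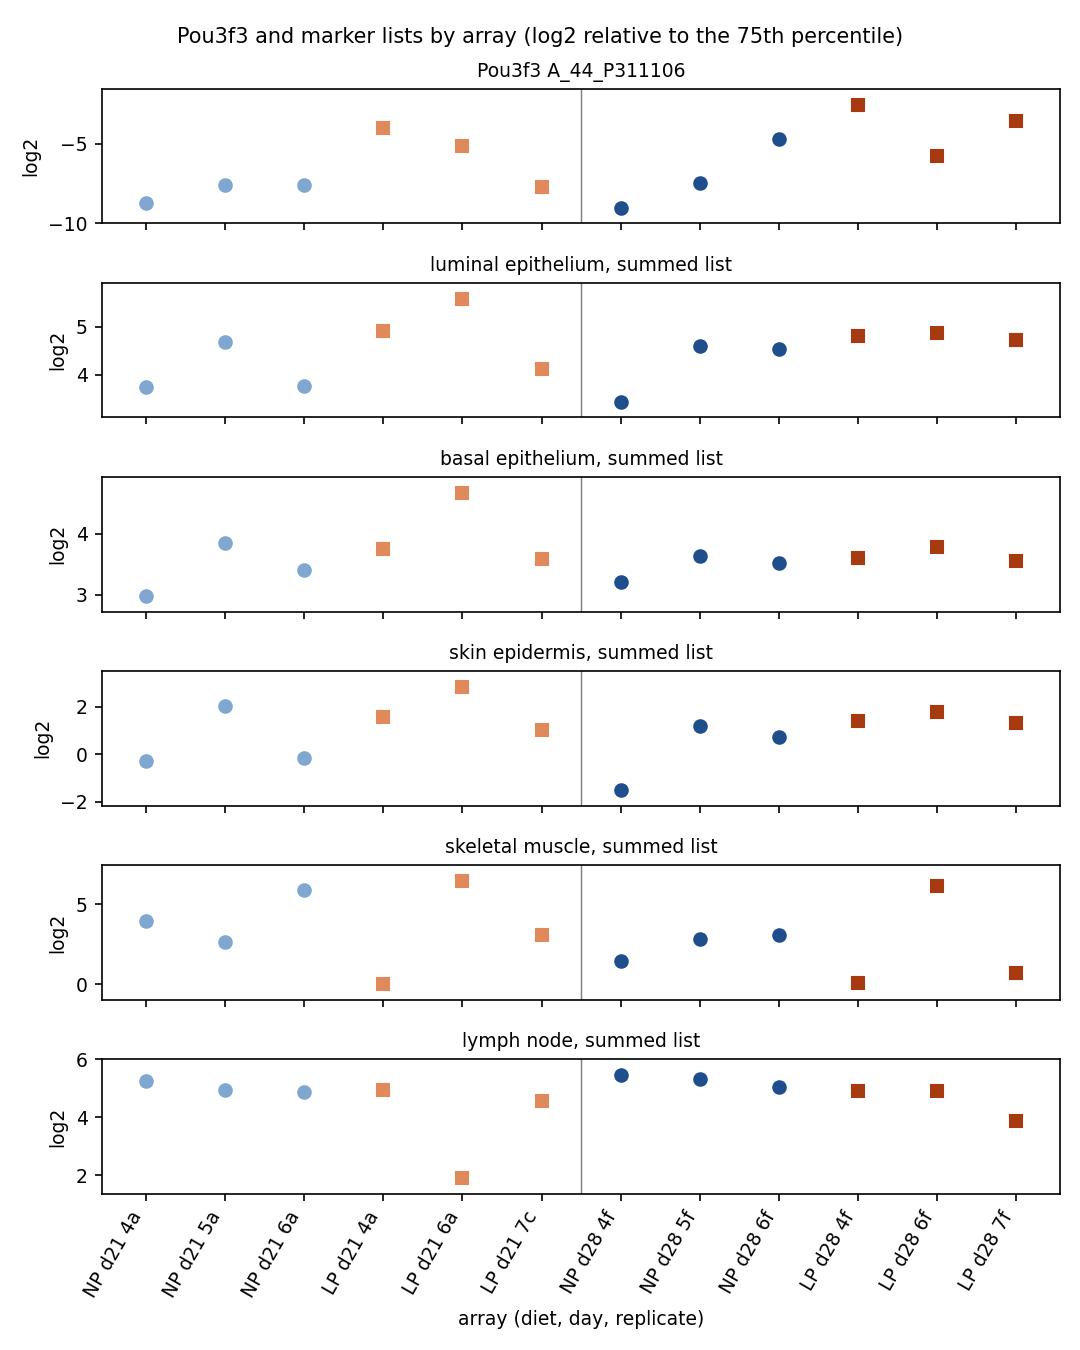
A_44_P311106 (top, log2 relative to the 75th percentile) and the summed signal of the tested genes of 5 marker lists (log2) on each array, with circles for NP and squares for LP and a line between d21 and d28. LP arrays 4a and 4f join the highest Pou3f3 of their day to the lowest muscle signal, and LP d21 array 6a stands apart with a lymph node sum of 1.91.

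The nearest genes with a probe on each side of Pou3f3 were read from the same fit. Their order along the chromosome was taken from RefSeq on GRCr8, and the closest annotated gene, the noncoding Pantr1, had no matched probe. On that side these were Tmem182, Mfsd9 and Slc9a2, the genes 15, 16 and 18 places away in the annotation, and on the other side Mrps9, Gpr45 and Tgfbrap1, 2, 4 and 7 places away. Mrps9, of the mitochondrial ribosome, stayed between -0.31 and 0.10 on all arrays and differed by 0.00 (SE 0.11) at d21 and 0.03 (SE 0.11) at d28. Tgfbrap1, which binds TGF-beta receptors, differed by 0.00 (SE 0.18) and 0.04 (SE 0.18), and Tmem182 by 0.00 (SE 0.29) and 0.29 (SE 0.29). Mfsd9 differed by -0.06 (SE 0.11) and -0.18 (SE 0.11). Slc9a2, a sodium proton exchanger detected on 4 arrays, differed by 0.40 (SE 0.67) and 0.02 (SE 0.67). None of these 5 genes passed a limma adjusted p under 0.05 between the diets or the days, and the lowest adjusted p was 0.303. Of all tested probes, 0% passed between the diets on either day and 1.82% between the days. Gpr45 was well above background on no array.

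The genes whose pattern was most like A_64_P021286, the probe detected on more arrays, were ranked by Pearson's r over the 12 arrays among 23175 other tested probes. They were Lss (r = 0.926), Mrps18a (0.881), Psmc1 (0.856), Mtmr2 (0.847) and Sdf2 (0.846), and 1 probe without a gene symbol ranked among them. These correlations share the RNA and the scan of each array and were selected as the highest of many. Lss, the lanosterol synthase of cholesterol synthesis, had -0.64, -0.63 and -1.02 on LP d21 arrays 4a, 6a and 7c and -1.40, -1.08 and -1.08 on NP d21 arrays 4a, 5a and 6a. On LP d28 arrays 4f, 6f and 7f it had -0.55, -1.13 and -0.62, and on NP d28 arrays 4f, 5f and 6f it had -0.99, -0.87 and -0.82. Lss thus followed Pou3f3 in its low LP d28 array 6f, over a smaller range.

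Mrps18a, of the mitochondrial ribosome, ranged from 0.79 to 1.13, and Psmc1, an ATPase of the proteasome, from 1.05 to 1.43. Mtmr2, a phosphoinositide phosphatase, ranged from -0.41 to -0.15, and Sdf2, a protein of the endoplasmic reticulum, from 1.93 to 2.18. All 5 varied by under 1 log2 unit over the study, against 3.21 for A_64_P021286, or 1.98 over the 7 arrays on which it was detected. Against A_44_P311106 their r was 0.826 for Lss, 0.884 for Mrps18a, 0.894 for Psmc1, 0.691 for Mtmr2 and 0.871 for Sdf2. Of the 100 probes most like each Pou3f3 probe, 30 were shared, or 30% of each list. Cntn3, a neuronal adhesion molecule named after its values were seen, had the highest r with A_44_P311106 among genes with a symbol (0.900), and ranged from -7.58 to -4.66.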

How the data were processed

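The values used were the processed intensity of every spot in the 12 deposited scanner files, made by the authors with Agilent Feature Extraction 10.7.3.1 and corrected for background but not scaled between arrays. A deposited value table, in which the authors had divided each signal by its array's gene spot median, served as an alternative. Coordinates are those of the array design on rn4.

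Control spots (4259 per array) and outlier spots (259 to 766) were removed, each signal was divided by the array's 75th percentile over the spots kept (1451 to 2370) and put on the log2 scale, and spots of a probe were averaged. A probe was well above background on an array if at least 0.5 of its spots were, and this held on 3 or more arrays for 23177 probes, to which limma 3.58.1 was applied under R 4.3.3 (lmFit, eBayes, 4 groups, Benjamini-Hochberg over all tested probes). Scripts were tested on simulated data. The share of gene spots well above background was 74.8% to 79.6%, and the number of arrays limits the precision.

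The agreement of the probes was tested by exact permutation within the groups. The gene, its lists and the rules for the genes named were chosen with earlier results of these data known. Named were every Pou3f3 probe, class III and ubiquitously detected POU genes, the brightest gene of each list and those with an adjusted p under 0.05 in a diet contrast, 3 neighbours on each side, and the 5 genes of highest correlation. The results of some listed genes are not reported here, although counts still include them. Further genes of the lists were named after their values were seen. A gene was read by its brightest probe, and 17998 probes could be named through RefSeq. Pou2f2, Sox1, Sox3, Trp63 and Plin1 had no matched probe.

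Alternatives were normexp background correction, quantile and median scaling, the deposited table, outliers kept, other filters, fits within a day, trended moderation, the replicate number as a block, the row on the slide, another probe or floor, and leaving out each array. Undetected arrays at the floor and the correlation within groups were added after the data were seen. A further analysis was not made with the error model of Rosetta Resolver, which the study used.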

Additional observations from a re-analysis of the deposited data

How the results depend on the processing

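The gene was chosen on its difference between the diets, so that nothing is read from the direction under the alternatives. Some of them, such as fits within a day and trended moderation, cannot change the recorded means. The LP minus NP difference of A_44_P311106 kept its direction in every run that gave it a value. At d21 it was 2.36. It moved by more than the spread between replicates with normexp background correction (0.89), whose offset of 50 shrinks dim probes. The row on the slide as a covariate moved it as well (3.89). All NP arrays were in row 1, with 1 LP array of each day, 4a and 4f. These LP arrays, the highest in Pou3f3 of their day, carry the contrast of that fit. At d28 the other probe gave 0.87 in place of 3.09, normexp 1.22 and the slide row 4.61, and for A_64_P021286 normexp gave 0.34 and the slide row 1.62. These are differences of recorded means, undetected arrays included, and with such arrays raised to the lowest detected signal, an alternative added after the data were seen, the d21 differences were 1.89 and 0.94. For A_64_P021286 at d21, 1.48 became 0.44 with normexp and 2.23 with the slide row. Leaving out each array gave 1.56 to 3.41 at d21 and 2.10 to 4.27 at d28 (the highest without NP array 6f, against undetected arrays), and for A_64_P021286 1.19 to 1.73 and 0.40 to 1.36. The lower bounds at d21 were 1.78-fold and 1.32-fold with normexp. The negative controls as floor lay below every NP array at d21, so that the 5.14-fold and 2.79-fold they give are the recorded differences and no bounds.

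The day difference of A_44_P311106 was 0.69 to 1.78 when each array was left out, and that of A_64_P021286 0.28 to 0.76. The agreement of the probes was 0.820 to 0.914 when each array was left out. The filter for detection on all 12 arrays removed both Pou3f3 probes, so that it gives no value for them. The diet comparisons had 0 calls at an adjusted p under 0.05 under every alternative run, over all probes as over the POU genes and the marker lists. The number of probes called between the days, 421, was 270 with normexp, 217 without the filter, 223 with the replicate block and 103 to 401 when each array was left out, lowest without NP d21 array 6a. Pax8 was the 1 listed gene called between the days, and the number of listed genes called was 0 to 3 over the alternatives.

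With replicate numbers fitted as a block, the A_44_P311106 difference was 2.79 at d21 and 3.52 at d28, and the day difference 1.28. Number 5 occurs only in NP and number 7 only in LP. The blocked diet difference, averaged over the days, therefore rests on numbers 4 and 6, which are not of 1 litter across the diets. The numbers were not taken to pair the arrays. The deviations of same-numbered arrays from their group means correlated between -0.06 and 0.38 over the tested probes, above 0.1 in 5 of 10 pairs, although the same number was the closest of the other group in 8 of 10, all except NP 4 with LP 4 at d21 and LP 7 between the days. The block moved the basal medians from 0.75 and 0.83 to 1.14 and 1.38, and the luminal ones from 0.77 and 0.64 to 1.27 and 1.07, at d21 and d28. The row covariate turned the median of the lymph node genes at d28 from -0.63 to 0.43 and moved those of the muscle genes to -5.90 at d21 and -4.90 at d28. The median of the muscle genes turned to 0.60 at d21 without LP array 4a and at d28 to 0.87 without LP array 4f, 0.08 without LP array 7f, 0.26 with normexp and 0.13 over genes detected on all 12 arrays. Causes were not tested.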
